A study of Mus musculus with 9 samples.

Results

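Fetal testis lacking Sox9 in its Sertoli cells (XY-KO) was compared with control fetal testis (XY-WT) across every gene of the authors' deposited table for that comparison. That is 15300 genes of 15300 in the series, in 6 of its 9 samples. Both groups were testes of C57BL/6 mice at E13.5, with the mesonephros dissected away, and 3 samples each. XY-WT carried the alleles Sox9flox/flox and is named wildtype in the labels. XY-KO carried AMH-Cre together with Sox9flox/flox, so Cre recombinase was made from an Amh promoter, which is active in Sertoli cells, and the other cells of the testis kept their Sox9 alleles. The series' 3 remaining samples were XX-WT ovaries with Sox9flox/flox. RNA was amplified by SPIA, a linear method described in the labels as selective for RNA that is not ribosomal, before paired-end sequencing. The mitochondrial ribosomal RNAs mt-Rnr2 and mt-Rnr1 still had mean levels equal to 36.8% and 8.07% of all counts per sample on the CPM scale. By the authors' deposited table they were at -0.06 (adjusted p 0.909) and -0.16 (adjusted p 0.737) in XY-KO minus XY-WT.

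SOX9 is the transcription factor that turns supporting cell precursors into Sertoli cells, and Sertoli cells then enclose germ cells in cords and direct the other cell types through secreted signals. SOX factors bind a short AT-rich core in DNA, and SOX9 is best known outside the gonad for driving cartilage collagen genes. Sertoli cells also have a large plasma membrane equipment of gap junctions, ion channels, nutrient carriers and protease inhibitors that serve the germ cells they nurse. The account below follows those gene families and pathways rather than the well-known marker genes.

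The 3 genes chosen to check the groups were all lower in XY-KO. Derived from the authors' means and fold changes, the level of Sox9 was 6.48 in XY-WT and 3.72 in XY-KO, in log2 CPM (a log scale of read counts corrected for library size). The level of Amh, the hormone that removes the Müllerian ducts, was 6.74 in XY-WT and 4.68 in XY-KO. That of Col9a3, a chain of the cartilage collagen IX, was 5.85 and 3.68. The authors' deposited table gave adjusted p-values of 8.93e-07 for Sox9, 5.42e-05 for Amh and 2.02e-06 for Col9a3. The table gives groups and no values per sample, so each error below is the standard error (SE) or the 95% interval computed from the authors' fold change and t. Whether the samples were single fetuses or pools is not given, and the p-values measure a spread between samples, which may be partly technical. The authors' fit may share its estimate of that spread with the XX-WT samples, and limma moderates it across genes. Depth per sample is unknown here.

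Genes are called higher or lower here where limma's adjusted p was under 0.05, whatever the size of the change. Of the 15300 genes 347 were called (2.27%), 107 higher (0.699%) and 240 lower (1.57%) in XY-KO. At an unadjusted p under 0.05 there were 2899 genes (18.9%). The change was at least 2-fold for 61 of the higher and 129 of the lower genes. Fold changes also followed transcript composition: across 15192 genes with an annotation, the Spearman correlation between the log2 fold change and the GC content of the longest transcript was -0.378, a description across genes that are not independent. The median log2 fold change went from 0.13 in the lowest of 5 equally filled bins of GC content to -0.253 in the highest. Once that trend and the one with length were taken out, 113 genes were higher (0.744%) and 141 lower (0.928%), so the higher share of called genes went from 30.84% to 44.49%. In the same direction as before, 79 higher and 134 lower genes were called both ways. The part of GC content in any single change was not tested, and a call that ended with the trend removed is named as such below.

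**Figure D1:**
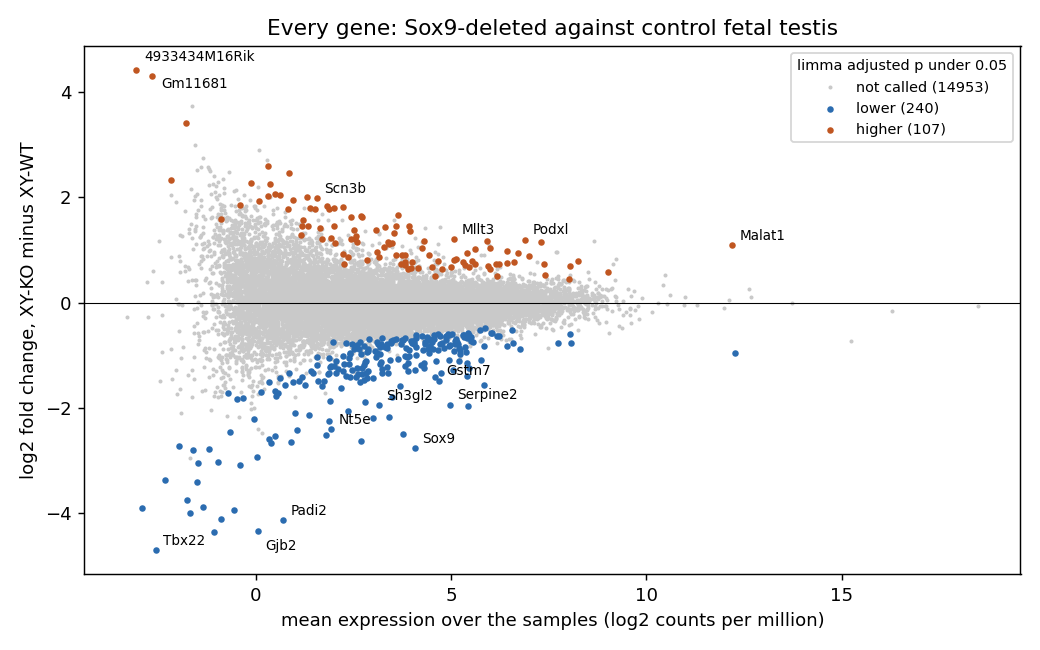
Each point is a gene, placed by its mean expression (log2 CPM, horizontal) and by its log2 fold change, XY-KO minus XY-WT (vertical), with the 240 lower genes in blue, the 107 higher genes in orange and the rest in grey. The noncoding genes beside Sox9, Gm11681 and 4933434M16Rik, stand at the top left, and Gjb2, Padi2 and Tbx22 at the bottom left.

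**Figure D2:**
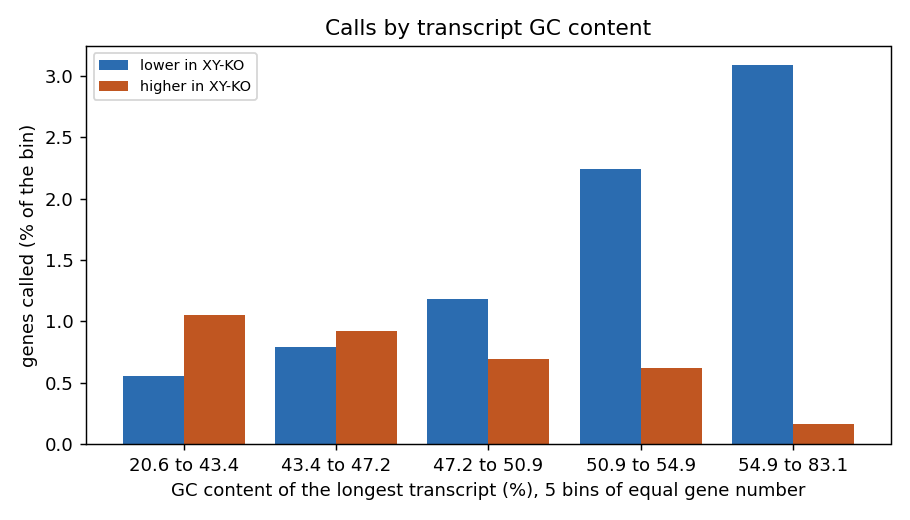
Bars give the share of genes called lower (blue) and higher (orange) in each of 5 equally filled bins of transcript GC content. The share called lower goes from 0.559% in the bin of lowest GC content to 3.09% in the highest, while the share called higher goes from 1.05% to 0.165%.

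In whole testes, fewer cells of a type and less RNA per cell cannot be told apart. The summed derived level of 36 Sertoli markers was 1980 CPM in XY-WT and 1260 CPM in XY-KO, and 19 of them fell; that list was written with results of these data known and is not independent evidence. Markers of the other cell types gave 2 calls, the germ cell gene Utf1 (2.22-fold lower, a call that ended with the trend removed, adjusted p 0.183) and Myh8. The sums in XY-WT and XY-KO were 951 and 910 CPM for 12 fetal Leydig markers, 443 and 353 CPM for 10 germ cell markers, and 219 and 212 CPM for 12 endothelial markers. They were 22.9 and 20.8 CPM for 8 macrophage markers, 540 and 453 CPM for 11 erythroid markers, 72.9 and 94.5 CPM for 7 mesonephric markers, and 1650 and 1550 CPM for 12 interstitial and smooth muscle markers. Skeletal muscle stood apart: all 8 muscle markers measured had a positive log2 fold change, with a median of 1.09. Their sum was 33.3 CPM in XY-WT and 68.8 CPM in XY-KO. In XX-WT ovary it was 73.6 CPM, so XY-WT had the lowest sum. The other 10 genes of the muscle list, among them Myod1, Myog and Acta1, were not analysed here.

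The largest rises of the whole table were those of the 2 genes next to Sox9. 4933434M16Rik (ENSMUSG00000020624), a long noncoding RNA gene on chromosome 11, 112825154 to 112832469 of GRCm38, begins 37.4 kb past the end of Sox9 on the same strand. In the authors' deposited table its log2 fold change was 4.42 (SE 0.63, adjusted p 0.00101), with a derived level of -4.45 in XY-WT and -0.03 in XY-KO. Gm11681 (ENSMUSG00000075437), a noncoding gene on the opposite strand at 112792731 to 112799008, ends 4.97 kb past Sox9. The authors' deposited table gave it a log2 fold change of 4.31 (SE 0.80, adjusted p 0.00828), and its derived level was -3.73 in XY-WT and 0.58 in XY-KO. The levels in XY-WT are so low that these values depend on the offset added before taking logs, and no fold is given. In control ovary, where Sox9 was at 2.01, the derived levels were -4.73 for 4933434M16Rik and -4.81 for Gm11681, near those of control testis.

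Beyond this pair no gene around Sox9 was called. The next one downstream, the noncoding 2610035D17Rik at 256 kb, was at -0.76 (SE 0.345, adjusted p 0.247) by the authors' deposited table. The zinc carrier gene Slc39a11 at 457 kb was at -0.21 (adjusted p 0.721) by the authors' deposited table. The 6 genes from 861 to 989 kb downstream lay between -0.47 and 0.08. Upstream, the potassium channel genes Kcnj2 and Kcnj16, 1710 and 1750 kb away, were at -0.19 and -0.62 in the authors' deposited table. The labels do not say whether reads were counted by strand. These neighbours were chosen by position after the values of the nearest pair had been seen.

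**Figure D3:**
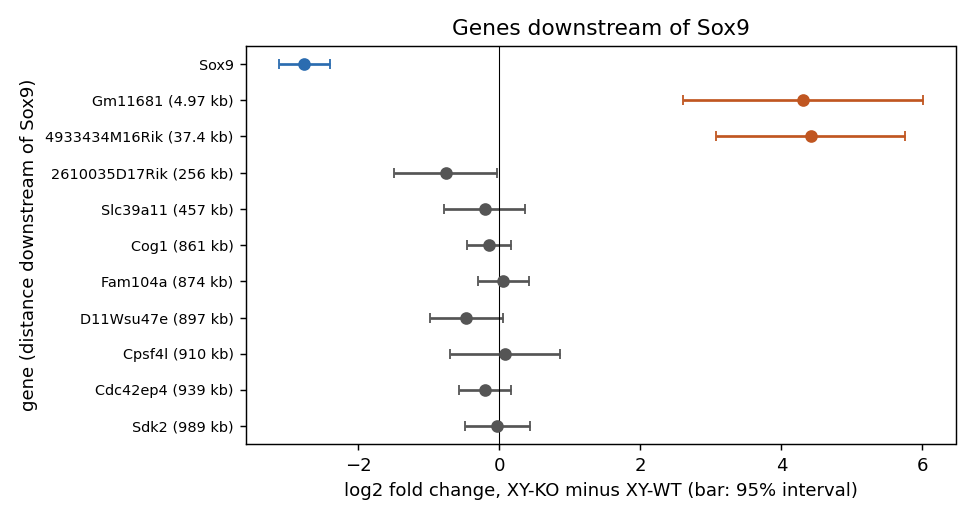
Points give the log2 fold change, XY-KO minus XY-WT, of Sox9 and of the next 10 genes downstream, with 95% intervals and the distance from the end of Sox9 beside each name. Sox9 lies at -2.76, the 2 noncoding genes at 4.97 and 37.4 kb lie above 4, and the other 8 have not passed the test.

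Across 108 gene families and pathways, 134 of 4436 measured members were called (3.02%), 38 higher and 96 lower. That share stood beside 2.27% of all genes. At least 1 member was called in 72 families, at least 3 in 19, and 36 families had no called member. The calls were thus spread thinly, and most families that changed did so through a few members.

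**Figure D4:**
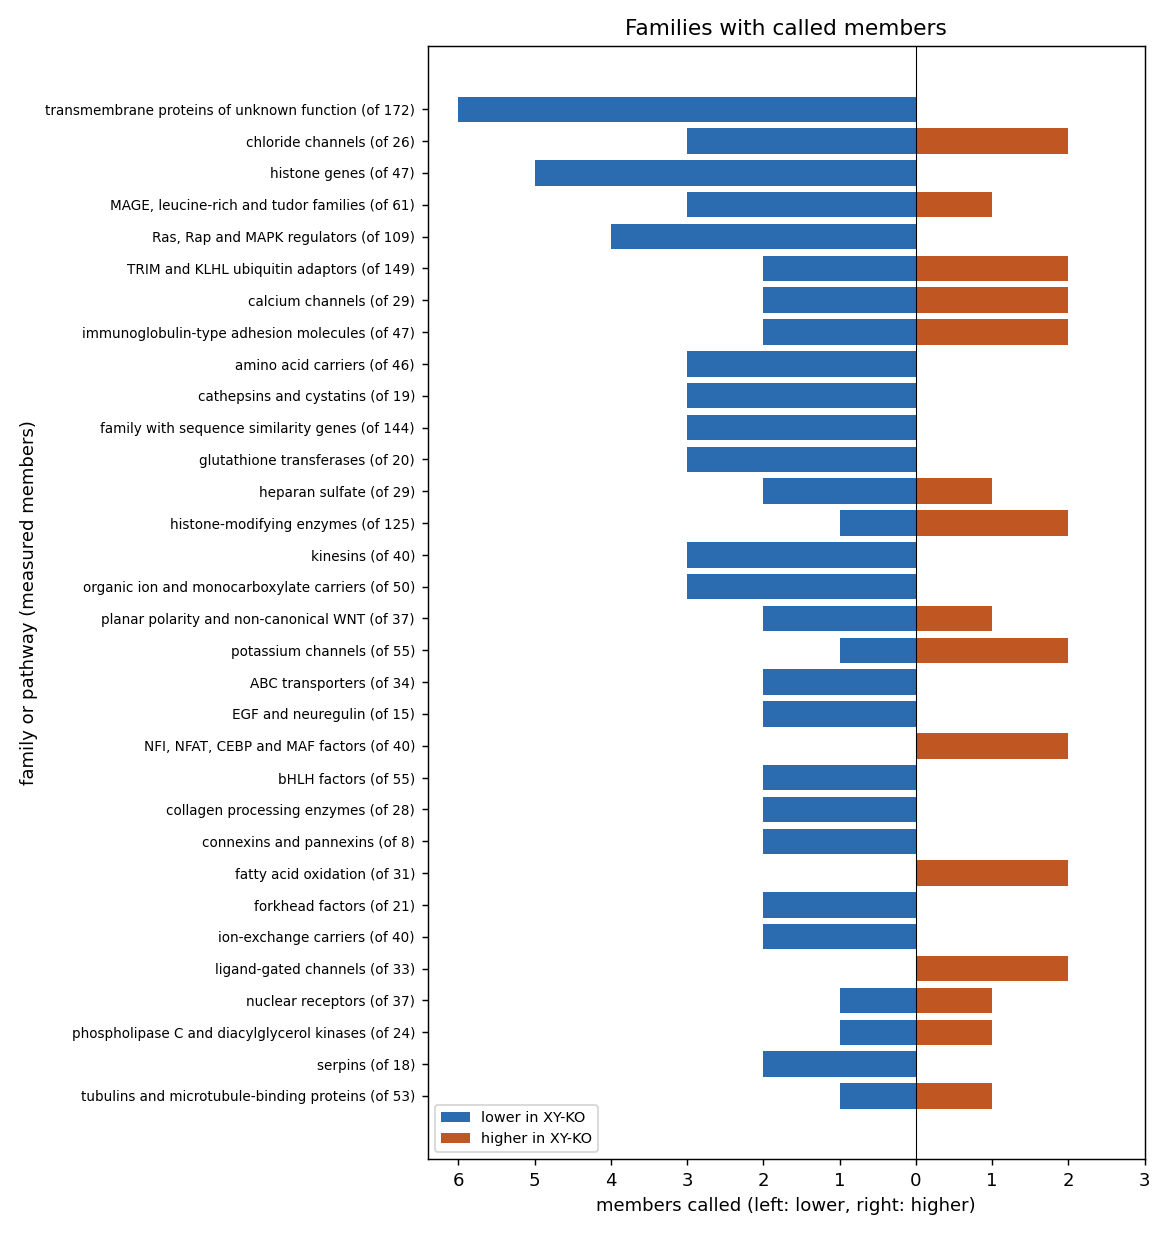
Bars count the members called lower (blue, to the left) and higher (orange, to the right) in families with at least 2 calls, and the number of measured members stands beside its name. Glutathione transferases, histones, amino acid carriers and Ras regulators have calls in the lower direction, while chloride, calcium and potassium channels have calls in both.

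Connexins form gap junction channels between neighbouring cells, and 2 of 8 measured connexin and pannexin genes were lower. Gjb2 (connexin 26; ENSMUSG00000046352) went from a derived level of 3.13 in XY-WT to -1.21 in XY-KO, 20.3-fold lower (95% interval 10.3 to 40.1). Gja1, which encodes connexin 43, the main gap junction protein of the testis, went from 7.20 to 6.37, 1.78-fold lower (95% interval 1.38 to 2.29). The authors' deposited table gave adjusted p-values of 8.63e-05 for Gjb2 and 0.0169 for Gja1. The 2 members next in line, Panx1 and Gja4, were at -0.37 and -0.32 with adjusted p-values of 0.387 and 0.643 in the authors' deposited table. Over the 8 genes the median log2 fold change was -0.263, beside -0.0115 over all genes, and 0.001 once that trend was taken out.

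Serpins and cystatins are protease inhibitors, and the calls in their families were lower. Serpine2, also called protease nexin, blocks thrombin and plasminogen activators outside the cell; it went from 6.69 to 4.75 and was 3.84-fold lower (95% interval 3.11 to 4.73). The adjusted p of Serpine2 in the authors' deposited table, 2.93e-06, was among its smallest. Serpina5, the protein C inhibitor, was 6.94-fold lower (95% interval 2.64 to 18.3), and its call ended once that trend was taken out (adjusted p 0.0521). These were the 2 called among 18 serpins, whose median was -0.006. In the cathepsin and cystatin families 3 of 19 members were lower. Cst9, a cystatin made by fetal Sertoli cells, was 2.17-fold lower and another cystatin gene, Cst8, 1.70-fold lower. Ctsl, the lysosomal protease cathepsin L, was 1.83-fold lower (95% interval 1.41 to 2.39). Of these, Cst8 did not pass with the trend removed (adjusted p 0.0678).

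Of the proteases that cut matrix, Adamts16 was 2.43-fold lower (95% interval 1.89 to 3.14), the only call among 35 ADAM and ADAMTS genes. Mmp15, a membrane-anchored matrix metalloproteinase, was 2-fold lower, the only call among 14 matrix metalloproteinases and their inhibitors, and this ended with the trend removed (adjusted p 0.0709). The transmembrane and other serine proteases had 0 of 20 called by limma and 5 at an unadjusted p under 0.05. Over all genes these shares were 2.27% and 18.9%.

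Matrix and adhesion genes outside cartilage collagens changed in both directions. A list of all collagens, added after the values were seen, had 8 of 39 lower and 1 higher. Besides the chains of collagens II and IX, Col14a1, a fibril-associated chain, was 2.62-fold lower (95% interval 2.04 to 3.35) and Col18a1, a basement membrane chain, 2.12-fold lower. The fibrillar Col27a1 was 1.86-fold lower and the membrane-bound Col25a1 1.78-fold lower. Col6a6, a chain of the microfibrillar collagen VI, was the exception, at 2.73-fold higher (95% interval 2.03 to 3.68). Of 28 enzymes that process collagen, 2 were lower. Plod2, which hydroxylates collagen lysines, was 1.49-fold lower, and Colgalt1, which adds galactose to them, was 1.75-fold lower, the latter with an adjusted p of 0.0525 once the trend was removed.

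Heparan sulfate genes gave 3 calls of 29. Sulf1 removes sulfate groups from heparan sulfate chains at the cell surface, and it was 1.85-fold higher (95% interval 1.54 to 2.23; adjusted p 0.000882 by the authors' deposited table). The core proteins Sdc4 and Gpc1, which carry such chains, were 1.67-fold and 1.72-fold lower, and both calls ended with the trend removed (adjusted p 0.0915 and 0.237). The uncalled members next in line were the sulfotransferase gene Hs6st1 at -0.50 (adjusted p 0.0839) and the core protein gene Sdc3 at -0.52 (adjusted p 0.0902) by the authors' deposited table.

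Dtna encodes dystrobrevin alpha, a cytoplasmic partner of the dystrophin complex that ties the cytoskeleton to the matrix. It was 3-fold lower (95% interval 2.44 to 3.70), the only called gene of 22 in that complex. Sgcd and Dag1, the complex members next in line, were at 0.92 (adjusted p 0.0524) and -0.49 (adjusted p 0.0803) by the authors' deposited table. The integrin chain Itga6, which pairs to bind laminin, was 1.37-fold higher (95% interval 1.16 to 1.62), the only call among 19 integrins and the smallest called rise of the table. Fbln2, a fibulin of elastic fibres, was 1.89-fold lower. Smoc1, a calcium-binding matrix protein, was 1.73-fold lower, a call that ended with the trend removed (adjusted p 0.0589).

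Adhesion molecules of the immunoglobulin type and their relatives had 4 of 47 called. The contactin-associated genes Cntnap5a and Cntnap1 were 3.46-fold (95% interval 1.96 to 6.09) and 1.67-fold higher. Nectin1, an adherens junction receptor, and Igsf3 were 2.09-fold and 1.52-fold lower, and neither passed with the trend removed (adjusted p 0.0647 and 0.109). Tetraspanins had 0 of 24 called by limma and 4 at an unadjusted p under 0.05. Adhesion G protein-coupled receptors had 0 of 17 and 3, beside shares of 2.27% and 18.9% over all genes.

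Of 20 glutathione transferases 3 were lower, all of the mu class. These cytosolic enzymes couple glutathione to reactive compounds, and their genes form a cluster on chromosome 3. Gstm7 went from 5.86 to 4.38, 2.79-fold lower (95% interval 2.24 to 3.47). Its neighbour Gstm6, 7.03 kb away on the same strand, went from 6.25 to 5.16, 2.14-fold lower (95% interval 1.56 to 2.94). Gstm1, further along the cluster, went from 8.68 to 7.91, 1.70-fold lower (95% interval 1.34 to 2.16). In the authors' deposited table the adjusted p-values were 5.71e-05 for Gstm7, 0.0124 for Gstm6 and 0.0198 for Gstm1, and the last rose to 0.108 with the trend removed. Genes of this class are similar in sequence, and how reads shared between them were counted is not given in the sources used here. The uncalled members with the smallest adjusted p were of the alpha class. Gsta2 was at 0.85 (adjusted p 0.149) and Gsta3 at 0.52 (adjusted p 0.191) by the authors' deposited table. Of 38 antioxidant and NRF2 target genes 0 were called by limma, with 6 at an unadjusted p under 0.05. The shares over all genes were 2.27% and 18.9%.

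The promoters of the called glutathione transferase trio are shown, with those of Serpine2 and Gjb2 as called genes of other families. Of the trio only Gstm7 and Gstm6 are next to each other among the tested genes. Each is the 250 bases before a gene start in RefSeq (GRCm38.p6), on the gene's own strand, and the first start was used where a gene had several. Capitals mark matches on either strand to ACAAAG or ACAATG, forms of the core that SOX proteins recognise; a run of 6 letters matches at most 1 of them.
Gstm7 (chr3:107931818-107932067, minus strand): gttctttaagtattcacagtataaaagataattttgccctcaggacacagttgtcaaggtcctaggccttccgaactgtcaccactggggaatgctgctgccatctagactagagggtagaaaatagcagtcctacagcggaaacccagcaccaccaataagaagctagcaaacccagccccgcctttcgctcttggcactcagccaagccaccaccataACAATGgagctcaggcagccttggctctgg
Gstm6 (chr3:107953467-107953716, minus strand): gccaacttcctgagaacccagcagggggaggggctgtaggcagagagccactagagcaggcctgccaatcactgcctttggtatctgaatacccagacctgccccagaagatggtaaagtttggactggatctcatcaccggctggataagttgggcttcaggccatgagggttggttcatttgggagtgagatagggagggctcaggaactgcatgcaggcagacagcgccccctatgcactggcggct
Gstm1 (chr3:108017974-108018223, minus strand): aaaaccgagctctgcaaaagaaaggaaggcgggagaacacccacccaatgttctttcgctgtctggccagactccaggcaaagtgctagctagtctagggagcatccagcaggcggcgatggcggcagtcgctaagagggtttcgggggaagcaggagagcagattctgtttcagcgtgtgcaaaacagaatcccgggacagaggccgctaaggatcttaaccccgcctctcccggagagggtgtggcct
Serpine2 (chr1:79858666-79858915, minus strand): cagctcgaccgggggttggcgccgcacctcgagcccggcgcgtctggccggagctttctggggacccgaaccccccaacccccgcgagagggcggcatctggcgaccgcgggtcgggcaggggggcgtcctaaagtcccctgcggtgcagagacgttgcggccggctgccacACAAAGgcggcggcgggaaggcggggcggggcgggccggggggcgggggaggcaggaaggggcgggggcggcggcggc
Gjb2 (chr14:57104703-57104952, minus strand): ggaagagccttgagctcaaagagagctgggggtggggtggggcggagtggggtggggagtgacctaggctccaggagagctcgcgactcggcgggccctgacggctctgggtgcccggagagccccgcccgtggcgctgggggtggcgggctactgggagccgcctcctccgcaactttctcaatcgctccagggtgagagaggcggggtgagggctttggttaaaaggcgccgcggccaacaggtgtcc
Gstm7 and Serpine2 each held 1 match, and Gstm6, Gstm1 and Gjb2 held 0, as did the promoter of Gja1. Of all 27025 RefSeq promoters 25.5% held a match, and of 11051 promoters of tested genes 17.2%. The share was 17.6% (30 of 170) for genes lower in XY-KO and 7.69% (5 of 65) for genes higher in XY-KO. A match is a run of letters and not a bound site.

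Of 29 calcium channel genes 2 were lower and 2 higher. Stim1, the sensor that opens plasma membrane calcium channels when the endoplasmic reticulum store is empty, went from 4.20 to 3.0, 2.31-fold lower (95% interval 1.81 to 2.94). Cacna2d2, an auxiliary subunit of voltage-gated calcium channels, was 2.70-fold lower (95% interval 2.09 to 3.48). In the authors' deposited table the adjusted p-values were 0.000772 for Stim1 and 0.000276 for Cacna2d2. Rcan1, an inhibitor of the calcium-dependent phosphatase calcineurin, was 2.41-fold lower (95% interval 1.86 to 3.12). The immunophilin Fkbp1a was 1.43-fold lower, which ended with the trend removed (adjusted p 0.256). These 2 belong to a list of 19 calcineurin genes added after the values were seen, in which 3 were lower.

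The pore subunit Cacna1d was 2.51-fold higher (95% interval 1.66 to 3.80) and the intracellular release channel Ryr2 2.20-fold higher (95% interval 1.47 to 3.29); Ryr2 did not pass with the trend removed (adjusted p 0.0658). In control ovary the difference from control testis was 0.09 for Stim1 (adjusted p 0.703) by the authors' deposited table, which gave -2.36 for Cacna2d2, 2.42 for Cacna1d and 2.92 for Ryr2. The 2 comparisons share the XY-WT samples.

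Potassium and chloride channels also had calls in both directions. Kcnh1, a voltage-gated potassium channel of the ether-à-go-go type, went from 5.78 to 4.37, 2.66-fold lower (95% interval 2.17 to 3.26; adjusted p 5.42e-05 by the authors' deposited table). Its relative Kcnh7 was 2.32-fold higher, a call that ended with the trend removed (adjusted p 0.117). The calcium-activated Kcnn2 was 3.08-fold higher (95% interval 2.04 to 4.66). Of 55 potassium channel genes these 3 were called.

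Chloride and volume-regulating channels gave 5 calls of 26. Ttyh1 and Ttyh3, tweety family membrane proteins, were 1.87-fold and 1.79-fold lower. Lrrc8b, a subunit of the volume-regulated anion channel, was 1.90-fold lower (95% interval 1.46 to 2.46). The anoctamins Ano4 and Ano5, members of a family of calcium-activated channels and lipid scramblases, were 3.53-fold (95% interval 2.41 to 5.17) and 1.82-fold higher. The calls of Ttyh3 and Ano5 ended with the trend removed (adjusted p 0.179 and 0.0937).

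Sodium channel and glutamate receptor genes rose where they were called. The sodium channel subunit Scn3b went from 0.77 to 2.75, 3.94-fold higher (95% interval 2.59 to 6.00), the only call among 11 sodium channel genes. The glutamate receptor subunits Grik3 and Gria3 were 3.15-fold (95% interval 2.09 to 4.74) and 1.74-fold (95% interval 1.45 to 2.09) higher, the 2 calls among 33 ligand-gated channels. That family had a median log2 fold change of 0.354, beside -0.0115 over all genes and 0.131 over the 3775 genes of lowest expression, among which the family's median expression of 0.863 lies. Gria1, another glutamate receptor subunit that did not pass, was at 2.05 (adjusted p 0.10) by the authors' deposited table.

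Nutrient and ion carriers were lower where they were called. Slc6a8, the creatine carrier, was 1.83-fold lower (95% interval 1.48 to 2.25) and Slc38a1, a glutamine carrier, 1.54-fold lower. Slc7a5, the large neutral amino acid carrier, was 1.80-fold lower, a call that ended with the trend removed (adjusted p 0.144). They were the 3 called of 46 amino acid carriers (6.52%, beside 2.27% of all genes). Slc3a2, the chain that pairs with Slc7a5, was at -0.68 (adjusted p 0.108) and the glutamine carrier Slc38a5 at -1.22 (adjusted p 0.0602) by the authors' deposited table.

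Among phosphate carriers, Slc20a1 was 1.64-fold lower (95% interval 1.36 to 1.97). The authors' deposited table placed Slc34a2, a sodium-dependent phosphate carrier, at -3.90 (SE 0.75, adjusted p 0.0104), with a derived XY-KO level of -3.98 that is too low for a fold. Slco3a1, an organic anion and prostaglandin carrier, was 2.56-fold lower (95% interval 1.91 to 3.43). Slc13a2, a citrate and dicarboxylate carrier, was 10.3-fold lower with a wide interval of 3.49 to 30.6. The fatty acid carrier Slc27a4 and the sugar carrier Slc45a4 were 2.07-fold and 1.60-fold lower, and both calls ended with the trend removed (adjusted p 0.0938 and 0.0521).

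Among transporters driven by ATP the calls were also lower. Of 34 ABC transporters, Abca2 was 2.33-fold lower (95% interval 1.79 to 3.02) and the lipid transporter Abca12 7.61-fold lower (95% interval 3.91 to 14.8). Mt1, the metal-binding metallothionein, was 3.44-fold higher (95% interval 2.13 to 5.57; adjusted p 0.00735 by the authors' deposited table), the only call among 38 genes of metal handling. Mitochondrial carriers had 0 of 40 called by limma, with 10 at an unadjusted p under 0.05. All genes together had shares of 2.27% and 18.9%.

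**Figure D5:**
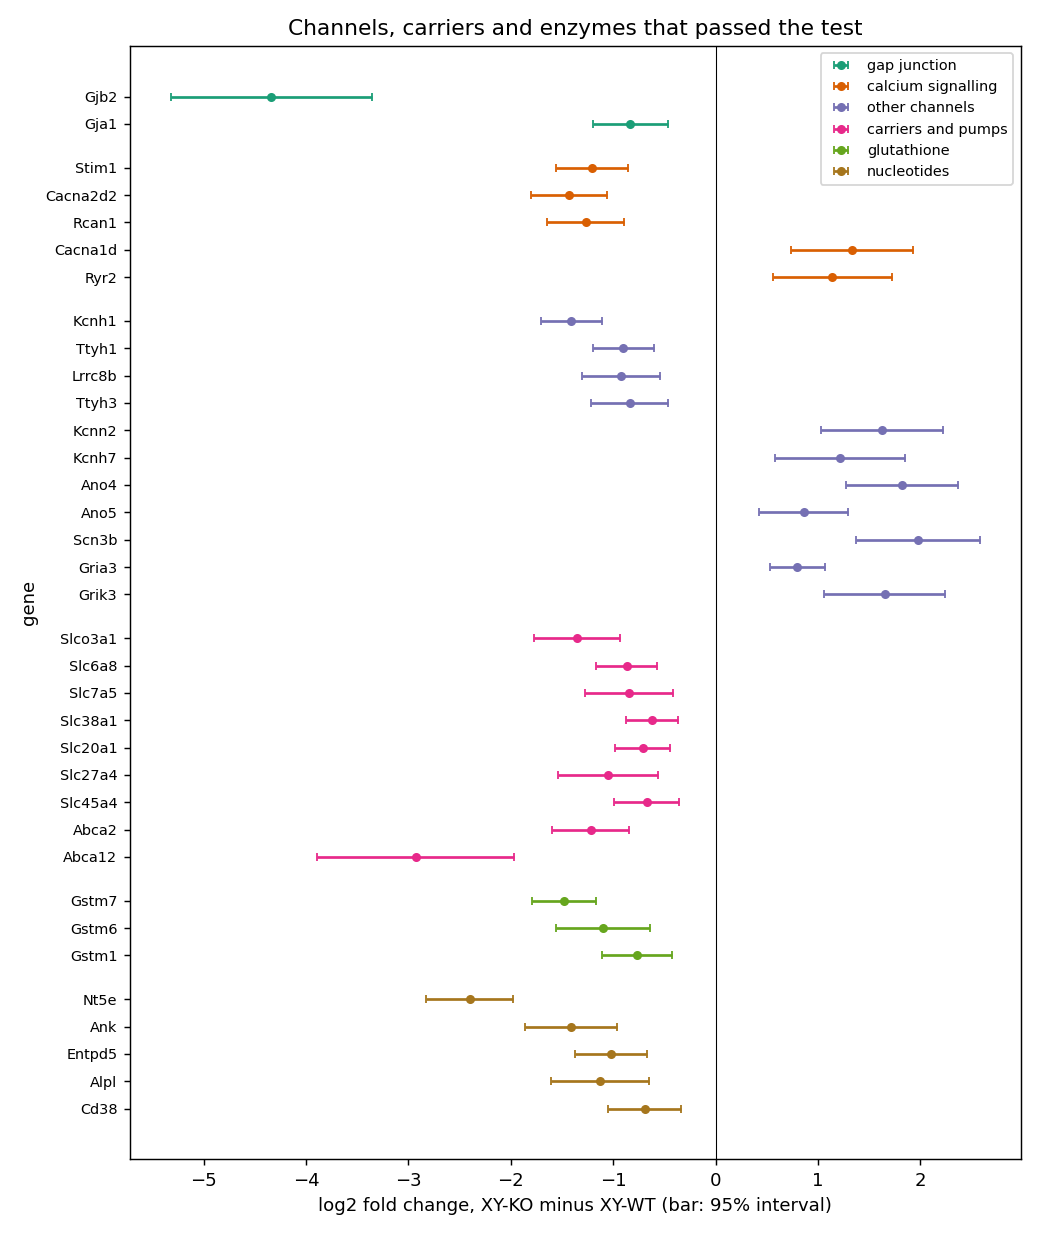
Points give the log2 fold change, XY-KO minus XY-WT, of 35 called channel, carrier and enzyme genes in 6 groups, with 95% intervals. Gap junction, carrier, glutathione and nucleotide genes lie below 0, while the channel groups lie on both sides.

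Genes that handle nucleotides and pyrophosphate had 5 of 17 lower, in a list put together after the values were seen. Nt5e (CD73), the surface enzyme that makes adenosine from AMP, went from 4.06 to 1.66, 5.29-fold lower (95% interval 3.95 to 7.09; adjusted p 1.21e-05 by the authors' deposited table). Ank, which exports pyrophosphate and ATP, was 2.67-fold lower (95% interval 1.95 to 3.64). Entpd5, a nucleoside diphosphatase, was 2.03-fold lower and Cd38, which consumes NAD, 1.62-fold lower. Alpl, the alkaline phosphatase that cleaves pyrophosphate, was 2.19-fold lower, with an adjusted p of 0.0662 once the trend was removed. Alkaline phosphatase is also a marker of fetal germ cells, whose summed marker level was 443 CPM in XY-WT and 353 CPM in XY-KO; their part in this fall was not tested.

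Steroid, lipid and energy metabolism gave single genes. Akr1c14, a reductase that acts on steroids at the third carbon, was 2.74-fold higher (95% interval 1.95 to 3.85), the only call among 11 aldo-keto reductases. Ppargc1a, a coactivator of mitochondrial genes, was 1.66-fold higher and Elovl2, which lengthens polyunsaturated fatty acids, 1.76-fold higher, and these did not pass with the trend removed (adjusted p 0.0689 and 0.0552). Cers4, a ceramide synthase, was 1.78-fold higher (95% interval 1.47 to 2.16). Fabp5, a fatty acid binding protein, was 1.96-fold lower (95% interval 1.43 to 2.68). Gxylt2, which extends sugars on Notch receptors, was 2.71-fold higher, the only call among 90 glycosyltransferases.

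Counts for housekeeping metabolism stand beside the 2.27% called over all genes. In glycolysis 1 of 28 genes was called (3.57%), Eno1, 1.68-fold lower, with an adjusted p of 0.211 once the trend was removed. By limma, 0 of 76 oxidative phosphorylation genes were called, with 14 at an unadjusted p under 0.05 and a median of -0.148 (-0.0376 with the trend removed). The citric acid cycle had 0 of 29 called and 5 at an unadjusted p under 0.05, and cytochrome P450 genes had 0 of 20 and 2.

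Phospholipase C isoforms went both ways. Plcb2 was 2.53-fold lower (95% interval 1.89 to 3.40) and Plcb1 2.08-fold higher (95% interval 1.61 to 2.68); both cleave a membrane lipid after G protein-coupled receptors fire. They were the 2 calls among 24 phospholipase C and diacylglycerol kinase genes. Plcb2 lies 3.55 kb from Ankrd63, which was 4.25-fold lower and was named for its position after its value was seen.

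In the EGF and neuregulin family the calls were a receptor gene and a gene that restrains such receptors. Erbb3, a receptor for neuregulins, went from 4.29 to 2.42, 3.68-fold lower (95% interval 2.60 to 5.19). Lrig1, which restrains receptors of that family, was 1.80-fold lower. They were the 2 called of 15 EGF and neuregulin genes, and the ligand Nrg1 was at 0.67 (adjusted p 0.0665) by the authors' deposited table. Erbb3 also serves Schwann cells with Sox10, which was 15.3-fold lower. In a list of 12 myelin and glial genes, added after the values were seen, 5 were called, 4 of them lower.

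Socs2, a brake on growth hormone and cytokine receptors, was 2.51-fold lower (95% interval 2.06 to 3.05; adjusted p 5.63e-05 by the authors' deposited table), the only call among 20 STAT, SOCS and JAK genes. Fstl4, a follistatin-like gene, was 6.31-fold lower (95% interval 3.81 to 10.4), the only call among 54 TGF-beta pathway genes outside AMH and inhibin. Pappa, a protease that frees insulin-like growth factors, was 1.59-fold higher, which ended with the trend removed (adjusted p 0.0589).

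WNT genes were counted here in lists of polarity and non-canonical genes and of antagonists and feedback genes. The level at which the pathway changed was not tested. Daam2, a formin that acts downstream of Dishevelled, went from 5.35 to 6.52, 2.24-fold higher (95% interval 1.78 to 2.82). The large cadherin Fat1 was 1.69-fold lower and the polarity scaffold Scrib 2.13-fold lower, the latter with an adjusted p of 0.0571 once the trend was removed. These were 3 of 37 planar polarity and non-canonical WNT genes. In a list of 23 WNT antagonists and feedback genes, added after the values were seen, 3 fell and 1 rose. Nkd2, which binds Dishevelled, was 2.35-fold lower (95% interval 1.73 to 3.21), and Sostdc1 1.73-fold lower, the latter with an adjusted p of 0.0513 once the trend was removed. Lgr5, the R-spondin receptor, was 5.62-fold lower, while Rnf43, the ubiquitin ligase that removes Frizzled receptors, was 2.73-fold higher (95% interval 1.72 to 4.36).

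Of 109 Ras, Rap and MAPK regulators 4 were lower and 0 higher, and each of these calls held with the trend removed. Diras2, a Ras-like GTPase, was 6.22-fold lower (95% interval 3.74 to 10.4). Rasgef1c, an exchange factor, was 6.56-fold lower (95% interval 2.98 to 14.4), Rasl12 2.79-fold lower and the atypical kinase Mapk4 2.84-fold lower. Rnd2, a small GTPase, was 2.37-fold lower (95% interval 1.91 to 2.93) and Elmo1, which activates Rac with DOCK proteins, 2.16-fold lower. The kinase Pak3 was 1.65-fold lower, and Arhgef10 1.54-fold lower with an adjusted p of 0.093 once the trend was removed.

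Other signalling families had single calls or none. Ccl17, a chemokine, was 2.99-fold higher (95% interval 1.79 to 5.0), although its value in control ovary against control testis was -4.92 in the authors' deposited table. Akap5, which anchors protein kinase A, and Lrfn5, a synaptic adhesion protein, were each 1.88-fold higher. The G protein chain Gng12 was 1.43-fold lower. The orphan receptor Gpr37 was 1.60-fold lower, with an adjusted p of 0.0538 once the trend was removed. By limma 0 of 37 Notch, 0 of 29 Hippo and 0 of 50 interferon-stimulated genes were called, with 3, 1 and 7 at an unadjusted p under 0.05. Interleukins and their receptors had 0 of 34 and 7, complement and MHC genes 0 of 32 and 8, and PDGF, VEGF and KIT genes 0 of 29 and 6. Over all genes the shares were 2.27% called and 18.9% at an unadjusted p under 0.05. A count of 0 in lists this small does not set them apart.

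In a list of 22 endocytosis genes, added after the values were seen, 3 were lower. Sh3gl2, endophilin A1, which bends the membrane of forming vesicles, went from 4.39 to 2.44, 3.86-fold lower (95% interval 2.86 to 5.20; adjusted p 7.05e-05 by the authors' deposited table). Synj2, a lipid phosphatase recruited by endophilins, was 1.64-fold lower, and the actin regulator Eps8 1.91-fold lower (95% interval 1.60 to 2.27).

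Motor and filament genes gave 3 called kinesins of 40. The authors' deposited table placed Kif19a, a motor that trims cilia, at -3.75 (SE 0.71, adjusted p 0.00979), with an XY-KO level too low for a fold. Kif2c and Kif18b, which act on spindle microtubules, were 1.54-fold and 1.65-fold lower, and their calls ended with the trend removed (adjusted p 0.0843 and 0.157). Tuba1c, an alpha-tubulin, was 1.68-fold lower, which ended as well (adjusted p 0.113), and the kinase Dclk1, which binds microtubules, was 1.60-fold higher, which ended too (adjusted p 0.0632). Dyneins had 0 of 32 called by limma and 8 at an unadjusted p under 0.05, beside shares of 2.27% and 18.9% over all genes.

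Transcription factor genes gave scattered calls. Tbx22, a T-box factor known from palate development, was at -4.70 (SE 0.68, adjusted p 0.00121) by the authors' deposited table, the largest fall there, with a derived level of 0.54 in XY-WT. Rara, a retinoic acid receptor, was 1.83-fold lower with an adjusted p of 0.176 once the trend was removed. Maf and Nfat5 were 1.41-fold and 1.49-fold higher, Foxm1 and Foxp4 1.55-fold and 1.69-fold lower, and none of these 4 passed with the trend removed (adjusted p from 0.0543 to 0.261). Tcfl5, a bHLH factor that overlaps Col9a3 by 234 bases on the opposite strand, was 2.67-fold lower; without counting by strand, reads from the stretch they share cannot be told apart.

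Chromatin genes were called at shares near the 2.27% of all genes, such as 2.4% of histone-modifying genes. Mllt3 (AF9), a subunit of the complexes that free paused RNA polymerase, went from 4.28 to 5.48, 2.30-fold higher (95% interval 1.91 to 2.76; adjusted p 7.26e-05 by the authors' deposited table). It was the only call among 26 AF4 and elongation complex genes. Of 125 histone-modifying genes 2 were higher and 1 lower. L3mbtl3, a reader of methylated lysines, was 1.43-fold higher, and Smyd2, a lysine methyltransferase, 1.63-fold lower, which ended with the trend removed (adjusted p 0.117). L3mbtl4, a relative of L3mbtl3, was at 3.41 (SE 0.63, adjusted p 0.00831) by the authors' deposited table, from a derived XY-WT level of -3.02. DNA methylation enzymes had 0 of 21 called by limma and 5 at an unadjusted p under 0.05.

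Histone genes gave 5 falls, and most of the family lay below 0. Of 47 measured, 42 had a log2 fold change below 0, 26 had an unadjusted p under 0.05 and the median log2 fold change was -0.765, or -0.612 with the trend removed, beside -0.0115 over all genes. Hist1h2be was 2.53-fold lower (95% interval 1.82 to 3.52), the call among them that held with the trend removed. Hist2h2ab was 2.94-fold lower, Hist2h2ac 2.56-fold lower, H2afx 2.13-fold lower and Hist1h4d 1.72-fold lower (adjusted p from 0.081 to 0.203 with the trend removed). Most histone messages are made in the S phase of dividing cells and lack a poly(A) tail, and these genes are near-identical copies whose reads may be shared. Hist2h2ab and Hist2h2ac lie 52 bases apart on opposite strands.

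In a list of 75 mitotic exit and kinetochore genes, added after the values were seen, 9 were lower, 31 had an unadjusted p under 0.05 and the median was -0.283. Mybl1, a MYB factor of germ cells, was 2.35-fold lower (95% interval 1.77 to 3.11) and Ube2s, which extends ubiquitin chains at mitotic exit, 1.72-fold lower; the other 7 calls ended with the trend removed. Cdkn1c (p57), which halts the cell cycle, was 1.66-fold higher (95% interval 1.36 to 2.02), and Bcl2l11 (BIM), which starts apoptosis, 1.65-fold higher (95% interval 1.37 to 1.99). Beside these falls, the summed germ cell markers were lower by the values given above and all 10 of them had a log2 fold change below 0; their part was not tested.

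Core machinery stayed mostly uncalled, as did most genes, with 2.27% called over all of them. By limma 0 of 85 cytosolic ribosomal protein genes were called, with 16 at an unadjusted p under 0.05 and a median of -0.225 (-0.0936 with the trend removed). Endoplasmic reticulum chaperones had 0 of 46 called, with 9 at an unadjusted p under 0.05 and a median of -0.207. The splicing subunits Sf3a2 and Sf3b4, 2 of 10 in a list added after the values were seen, were 1.84-fold and 1.88-fold lower, and both calls ended with the trend removed (adjusted p 0.243 and 0.0827). Sf3a2 ends 318 bases before Amh on the same strand. TRIM and KLHL ubiquitin adaptors had 2 higher and 2 lower of 149, led by Trim5 at 3.43-fold higher (95% interval 2.23 to 5.28).

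Muscle genes were among the rises. Myh8, the perinatal myosin heavy chain, was 3.17-fold higher (95% interval 2.20 to 4.57) and the myosin light chain Myl1 6-fold higher (95% interval 3.05 to 11.8). Smpx, Alpk3 and Ky, muscle genes named after their values were seen, were 2.23-fold, 4.18-fold and 3.62-fold higher. The embryonic Myh3 was at 2.90 (adjusted p 0.134) and titin, Ttn, at 1.58 (adjusted p 0.153) by the authors' deposited table. These moved with the skeletal muscle sum given above, and the part of muscle tissue in the samples was not tested, also for Ryr2.

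Podxl, an anti-adhesive sialomucin, went from 5.79 to 6.99, 2.29-fold higher (95% interval 1.88 to 2.79). Cgn, a tight junction plaque protein, was 2.26-fold higher (95% interval 1.77 to 2.89) and Dsc2, a desmosomal cadherin, 2.22-fold higher (95% interval 1.71 to 2.90). Other junction genes, named after their values were seen, were lower: the desmosomal plaque gene Dsp by 1.77-fold (95% interval 1.48 to 2.13) and the tight junction gene Cldn11 by 6.16-fold (95% interval 4.03 to 9.41). Fras1, a basement membrane protein, was 1.98-fold higher and the protocadherin Pcdh9 1.87-fold higher. The abundant nuclear noncoding RNA Malat1 went from 11.67 to 12.76, 2.13-fold higher, with an adjusted p of 0.0488 in the authors' deposited table and 0.0924 once the trend was removed. Mir99ahg, a noncoding host gene of microRNAs, was 2.07-fold higher, which ended as well (adjusted p 0.0759). Among 361 genes annotated as lincRNA 7 were higher (1.94%), beside 0.699% of all genes. Their median log2 fold change was 0.363, and other large noncoding classes also had medians above 0. It was 0.203 for 702 antisense genes, 0.297 for 235 processed transcripts and 0.625 for 197 processed pseudogenes. Beside these stood -0.0359 for protein-coding genes and 0.131 for the 3775 genes of lowest expression.

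Large falls were also called outside the families. Padi2, which converts arginine to citrulline, went from 3.50 to -0.63, 17.5-fold lower (95% interval 9.59 to 31.9; adjusted p 5.42e-05 by the authors' deposited table). Plxnb3, a semaphorin receptor, was 10.6-fold lower with an interval of 4.32 to 26.1. Sowahb was 14.7-fold lower, the ubiquitin ligase Rnf208 8.51-fold lower and Gm14569 20.4-fold lower (95% interval 8.83 to 47). At higher expression, Sel1l3 was 3.47-fold lower (95% interval 2.72 to 4.43), AU015836 2.94-fold lower and the Nogo receptor relative Rtn4rl1 2.46-fold lower. Smtnl2 was 2.51-fold lower, Qsox2, which forms disulfide bonds, 2.22-fold lower, Rab31, a GTPase of vesicle traffic, 1.99-fold lower and Fgf13, an intracellular FGF relative, 1.97-fold lower. The mitochondrial Chchd10 and the RNA-binding Msi1 were 2.26-fold and 2.01-fold lower, and did not pass with the trend removed (adjusted p 0.101 and 0.11).

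With 2.27% of all genes called, 18 pairs of neighbours were both called, 12 with both lower, 3 with both higher and 3 in opposite directions. Neighbours here are tested genes that follow each other by start position on a chromosome, at any distance. The number of such pairs to expect from the share called was not computed. Pairs both lower included Gstm7 with Gstm6, Sf3a2 with Amh, Mal with Mall 47.7 kb apart, and Cnga1, a cyclic nucleotide-gated channel, with the magnesium carrier Nipal1 3.52 kb apart. Cnga1 was 2.81-fold lower and Nipal1 2.04-fold lower. Pairs both higher were Gm11681 with 4933434M16Rik, Trim7 with the overlapping Gm16170, and Podxl with the semaphorin receptor Plxna4 580 kb apart. The opposite pairs were Sox9 with Gm11681, Fgf13 with Mcf2, and Bex2 with Nxf3. By chromosome, chromosome 15 had 16 of 552 genes lower (2.90%, beside 1.57% of all genes), and the X chromosome had 12 higher (2.03%) and 12 lower among 590.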

How the data were processed

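The series measured RNA in 9 samples, 3 each of XY-KO, XY-WT and XX-WT, grouped by their titles. The files used were 3 deposited tables, one per pair of groups, each with 15300 genes. Per the file headers, they hold the authors' log2 fold change and mean log2 expression, limma's t and log-odds scores, and the deposited p-values with their Benjamini-Hochberg adjusted p-values. Per the submitters' processing notes, reads were handled with TopHat2 2.0.8, Trimmomatic 0.30, limma 3.24.0 and HTSeq 0.6.1p1 on GRCm38. Strand settings, filters and pooling are not given in the sources used here. No value per sample was used, so depth, counting intervals and detection floors are not given.

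The authors' limma test was used as deposited. Dividing each log2 fold change by its t gave the SE, and 95% intervals took 15.27 degrees of freedom, at which t returns the deposited p. Group levels assume equal weight of the 3 groups. Below a level of -3 no fold is given. Recomputed adjusted p-values matched within a relative gap of 0.000769, and fold changes of the 3 tables added up within 0.005. Positions, biotypes, GC content and length came from GENCODE M21 for 15192 genes. Their trend with the fold change was fitted by robust regression of degree 3 on genes at or above the median expression of 3.19, checked on simulated data, and subtracted.

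The comparison, the 117 gene lists (108 families, 9 cell type lists) and the named genes were chosen with earlier results of these data known, and 11 more lists were written after their values were seen. Lists are described by counts and medians, with no test. Named were Sox9, Amh and Col9a3, called list members with the 2 nearest uncalled, and outside lists the 20 largest rises and falls at or above median expression and 5 of each below it; others are marked in the text. Not every gene the rule allows is named, and some genes and a family are not reported here. Alternatives changed the threshold, the fold limit, the expression filter, the adjustment and the trend. The work was done in Python 3.11.15 with pandas 2.3.3, numpy 2.4.6, statsmodels 0.14.6, scipy 1.17.1 and matplotlib 3.10.9.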

Additional observations from a re-analysis of the deposited data

How the results depend on the processing

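Against 347 called genes (107 higher, 240 lower, 134 in families), an adjusted p under 0.01 left 139 (37 higher, 102 lower, 54 in families). A limit of 2-fold left 190 (61 higher, 129 lower, 65 in families), and Bonferroni adjustment left 55 (5 higher, 50 lower, 20 in families). Restricting the test to genes at or above median expression gave 206 (71 higher, 135 lower, 88 in families), since fewer genes were tested. Adjusting over the 3 tables together gave 922 (375 higher, 547 lower, 327 in families), where the many small p-values of the ovary comparison ease the adjustment, and the 347 genes stayed called. With the GC and length trend removed there were 254 (113 higher, 141 lower, 94 in families); 213 of the called genes kept their call and 131 lost it, and the cause was not tested. No called gene changed direction under these alternatives. No paired analysis was possible because the tables give no value per sample, and leaving out each replicate was not run for the same reason. Precision was lower at low expression: the median SE was 0.42 in the lowest of 4 equally filled bins of expression and 0.137 in the highest, so a low gene that was not called may still differ.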
